A study of Mus musculus with 12 samples.

Results

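The nuclear-encoded subunits of the mitochondrial respiratory chain and ATP synthase were examined in mouse colon. They were taken as the protein-coding genes whose symbols begin with Nduf followed by a, b, c, s or v and a number, are Sdha, Sdhb, Sdhc or Sdhd, begin with Uqcr, are Cyc1, follow the Cox naming of subunits 4 to 8, or begin with Atp5. In all, 84 of the 54532 genes in the deposited table met this rule, of which 80 passed a filter on low values and were tested. By complex, 35 of 35 complex I genes, 4 of 4 complex II genes, 9 of 9 complex III genes, 13 of 16 complex IV genes and 16 of 17 ATP synthase genes were tested. Ndufa4 and its paralog Ndufa4l2 were kept apart, since the NDUFA4 protein is now assigned to complex IV, and Atp5s matched by name without being a structural subunit of the enzyme. Another 11 processed pseudogenes and 1 long non-coding RNA matched the letters but are not protein coding and were left out. The rule does not reach Cox4i1, Cox4i2, Ndufab1 or Usmg5, which also encode subunits of these complexes.

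The samples were whole colon RNA from wild-type (WT) C57BL/6J mice in 4 groups of 3 libraries. The groups were a diet labelled CD, which the labels do not spell out, a diet labelled HFD (high-fat diet), and each diet with 2% dextran sulfate sodium (DSS), a polysaccharide that injures the colonic epithelium and provokes colitis. Ages, the length of feeding and the days of DSS were not given in the sources used here, and nothing in the labels says that the libraries of a group came from separate animals, so p-values measure the spread between these libraries, which may be technical. The level of a gene is given as FPKM (fragments scaled by exon length and by library size). This puts genes on 1 scale, but how fully the reads of each gene were counted is not known. Gapdh was listed at 0.963 to 11.2 FPKM, and Tagln at 0.783 to 2.40 beside 224 to 973 for Acta2, another smooth muscle marker. The cause was not tested, and levels of different genes are compared with that limit.

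The respiratory chain passes electrons from NADH (complex I) and succinate (complex II) through complex III and cytochrome c to oxygen at complex IV, and the proton gradient it builds drives ATP synthase. All complexes but complex II combine subunits encoded in the nucleus with a few encoded in mitochondrial DNA. Colonocytes, the absorptive cells of the colon, are known for their use of butyrate, made by gut bacteria, as a mitochondrial fuel.

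Between 14657797 and 17932294 fragments fell on genes in a library. The tissue label matched its markers: the summed FPKM of 10 colonocyte markers was between 4785 and 18910, and that of 8 general epithelial markers between 3772 and 8510. Libraries differed in position markers and in other tissue, within groups and between them. The mean log2(FPKM + 1) of Hoxa13, Hoxb13 and Hoxd13, which mark the hindmost part of the gut, ran from 0.47 in CD+DSS replicate 2 to 5.11 in CD replicate 2. Its group means were 3.96 in CD, 2.04 in HFD, 1.65 in CD+DSS and 4.04 in HFD+DSS (SD 0.46 to 1.45). It was thus lower with DSS under CD and higher with DSS under HFD. Position was not balanced over the groups compared, and its part in their differences was not tested. The summed FPKM of 10 smooth muscle markers ran from 681 in CD+DSS replicate 2 to 3165 in HFD+DSS replicate 3. In whole tissue, fewer cells of a type and less RNA per cell cannot be told apart.

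The 80 subunit genes tested spanned mean levels from 1.07 FPKM (Ndufa4l2) to 653 FPKM (Cox6a1). The median subunit gene stood at 72.0 FPKM. Complex IV had the highest median level of the 5 complexes, 145 FPKM, followed by complex III at 131, complex II at 103, ATP synthase at 79.6 and complex I at 54.2. Their ranges overlapped, so the order describes the medians and not each subunit. The complex IV median leaves out Cox6a2, Cox7b2 and Cox8c, which did not pass the filter and had means of at most 0.445 FPKM. With them it would be lower, so the first rank of complex IV rests on the filter. Within complex I the levels ran from 2.24 FPKM for Ndufb2 to 142 for Ndufa1, an accessory subunit of the membrane arm. Ndufb2 is annotated with 5628 bases of exon, against 419 for Ndufa1, and FPKM divides by that length. Ndufs1, with 8086 bases, stood at 19.6 FPKM, and the part of length in these levels was not tested. Within complex II, Sdhd, a membrane anchor subunit, stood at 199 FPKM and Sdhc, the other anchor, at 65.1. Complex III genes kept within a narrower span, from 74.4 FPKM for Uqcrq to 202 for Uqcrh, the hinge protein. Cox6a1 and Cox8a (499 FPKM), the widely expressed isoforms of 2 small complex IV subunits, led complex IV. The alpha and beta subunits of the catalytic F1 head of ATP synthase, Atp5a1 (488 FPKM) and Atp5b (394 FPKM), stood above the 14 other genes of their complex that were tested.

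**Figure D1:**
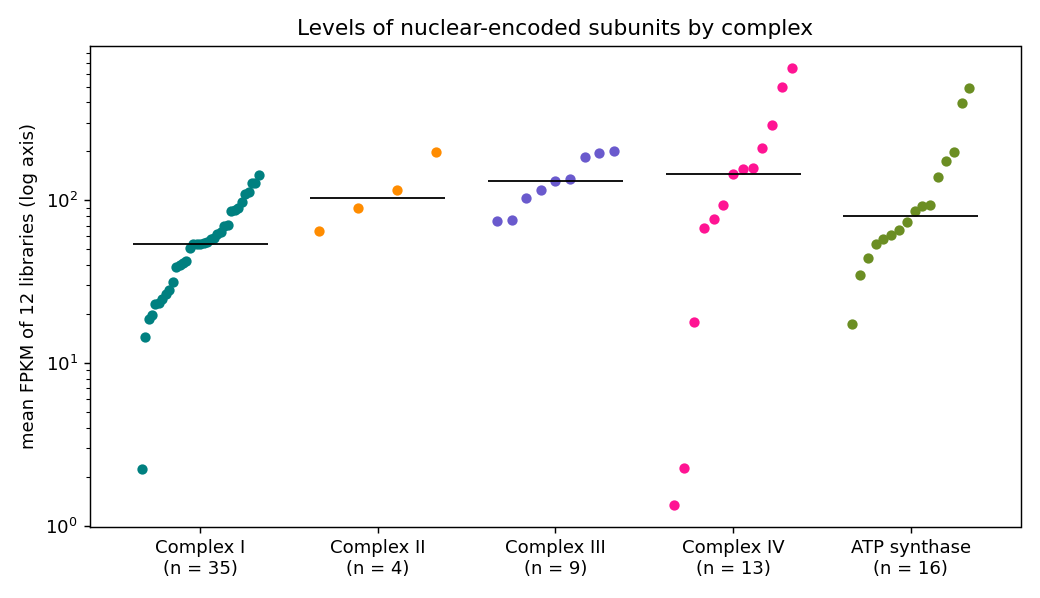
Mean FPKM over 12 libraries (log axis) of each tested subunit gene, by complex; each point is 1 gene and the horizontal line is the median of the complex. Complex IV has both the highest gene, Cox6a1 at 653 FPKM, and genes below 3 FPKM.

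Several complex IV subunits exist as isoforms of heart and skeletal muscle or of testis, and these were low in colon. Cox8c and Cox7b2, testis isoforms, had 0 fragments in all 12 libraries, where 3 fragments would correspond to 0.343 to 0.485 FPKM for Cox8c and to 0.290 to 0.410 FPKM for Cox7b2. The muscle isoform Cox6a2 was not tested. It stood at 2.91 FPKM (33 fragments) in CD replicate 3 and at 0 to 0.497 FPKM in the other 11 libraries, so a single library held most of the reads. The summed FPKM of 12 skeletal muscle markers was 44.1 in CD replicate 3 and 4.74 to 14.4 elsewhere, and its part in the Cox6a2 value was not tested. Cox7a1, the muscle isoform of subunit 7A, was expressed at 17.8 FPKM, against 210 for its widely expressed partner Cox7a2. Cox6b2, a testis isoform, stood at 2.26 FPKM against 290 for Cox6b1. A second entry named Atp5o (ENSMUSG00000116933) had 0 fragments in all libraries, while the entry that holds the Atp5o reads (ENSMUSG00000022956) stood at 65.6 FPKM.

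Promoter sequence was available for 68 of the 83 subunit symbols, as the 250 bases before and 50 bases after the start site in RefSeq (GRCm38.p6). Nuclear respiratory factor 1 (NRF1), the ETS factor GABP and YY1 are known regulators of respiratory chain genes, and letters of their motifs were searched on both strands. The NRF1 letters (GCGC and TGCGC with any 1 base between them) were present in 17 of 68 subunit promoters (25.0%), against 7.45% of all 16514 protein-coding promoters and 11.1% of the 9717 promoters of genes tested here. The ETS letters CCGGAAG were present in 16 of 68 (23.5%), against 13.4% and 19.6%. The YY1 letters AAGATGG were present in 11 of 68 (16.2%), against 7.27% and 8.40%. None of these 3 sets of letters contains another. By complex, the NRF1 letters were found in 7 of 31 complex I promoters, 2 of 3 of complex II, 1 of 5 of complex III, 1 of 13 of complex IV and 6 of 14 of ATP synthase. A match describes the letters and is not evidence of binding. Stretches from 4 subunits described below are shown, 1 from each of 4 complexes, because they place the same letters in genes of different complexes; capitals mark the NRF1 letters, each stretch is read 5′ to 3′ on the minus strand of GRCm38, and the first capital lies 162 (Cox6a1), 50 (Atp5k), 16 (Ndufs6) and 79 (Sdhd) bases before the start site.
Cox6a1, chr5:115349071-115349160: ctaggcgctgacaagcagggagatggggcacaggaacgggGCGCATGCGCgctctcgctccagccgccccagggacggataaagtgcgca
Atp5k, chr5:108434400-108434489: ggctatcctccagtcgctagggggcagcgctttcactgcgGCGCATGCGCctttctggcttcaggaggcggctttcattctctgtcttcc
Ndufs6, chr13:73328483-73328538: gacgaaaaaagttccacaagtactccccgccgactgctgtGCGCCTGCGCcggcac
Sdhd, chr9:50603879-50603968: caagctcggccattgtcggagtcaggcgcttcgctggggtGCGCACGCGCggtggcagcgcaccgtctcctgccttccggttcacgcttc
The Sdhd match is the reverse complement of the letters searched, and Cox6a1 and Atp5k carry the same 10 bases. Averaged over diets, the 17 genes with the NRF1 letters had a median DSS difference of 0.27 on the log2 scale, the 16 with the ETS letters 0.40 and the 11 with the YY1 letters 0.38, beside 0.32 for all 80 subunit genes. No test was made of these medians.

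Subunits of the different complexes stood high or low in the same libraries. The summed FPKM of the 80 genes was 7111, 6513 and 8093 in the CD libraries and 7300, 5873 and 9020 in the HFD libraries. With DSS it was 8953, 11500 and 7912 under CD and 8227, 8830 and 10020 under HFD. The sums of the DSS groups overlapped those of the diets alone, and the lowest and highest sums came from the second HFD and the second CD+DSS library. HFD replicate 2 held the lowest value of 54 of the 80 genes, with members in each of the 5 complexes. CD+DSS replicate 2 held the highest value of 43 of 80, among them 4 of 4 complex II genes and 8 of 13 complex IV genes, while HFD replicate 3 and HFD+DSS replicate 3 each held the highest value of 15. The median within-group SD of a subunit gene was 0.30 on the log2 scale, against 0.26 over all 14179 genes tested. Between its lowest and highest library a subunit gene differed by a median of 2.12-fold, from 1.39-fold for Atp5b to 12.3-fold for the low Cox6b2, and 44 of the 80 exceeded 2-fold.

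**Figure D2:**
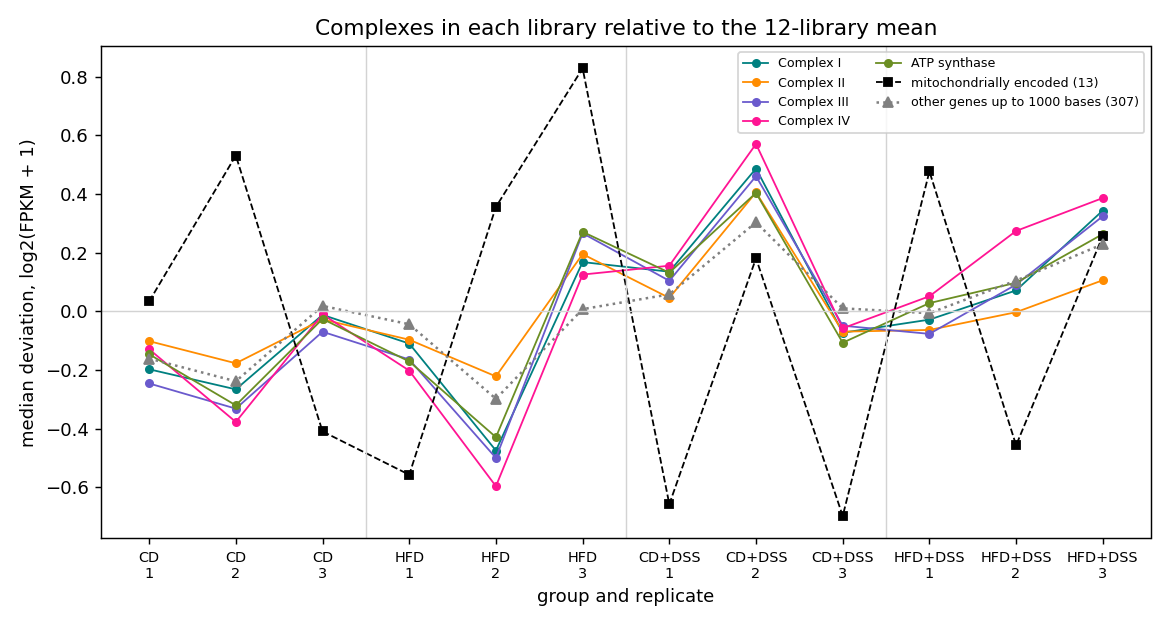
For each library, the median deviation of log2(FPKM + 1) from the 12-library mean over the tested genes of each complex, over the 13 mitochondrially encoded subunits and over 307 other protein-coding genes of up to 1000 bases; lines only join points of a set. The 5 complexes lie low in HFD replicate 2 (-0.60 to -0.22) and high in CD+DSS replicate 2 (0.40 to 0.57), and the short other genes lie on the same side in both.

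The libraries in which the subunits stood high were also those in which short genes in general did. The median deviation of the 307 other protein-coding genes with at most 1000 bases of exon was -0.30 in HFD replicate 2, where the subunit median was -0.45, and 0.30 in CD+DSS replicate 2, where it was 0.46. HFD replicate 3 departed from this, with a subunit median of 0.18 beside 0.01 for the short genes. The 13 mitochondrially encoded subunits followed another order. Their mean levels ran from 9.14 FPKM for mt-Atp8 to 20460 for mt-Co1, and how fully each was counted is not known. Most of their summed FPKM came from mt-Co1, mt-Cytb and mt-Nd1. The sum ran from 26300 in CD+DSS replicate 1 to 71070 in HFD replicate 3, and its ratio to the nuclear-encoded sum ran from 2.94 to 9.00. In HFD replicate 2, the lowest library for the nuclear-encoded genes, that ratio was 9.00.

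Under the CD diet, DSS was compared with no DSS to ask how the colonic respiratory chain differs in colitis. Of the 80 subunit genes, 74 were higher on average in CD+DSS, by a median log2 difference of 0.31, where 51.5% of all genes tested were higher and the median was 0.01. None passed the limma test at an adjusted p under 0.05, beside 0.0846% of all genes tested (12 of 14179), and voom on the recovered fragments called 0 as well. At an unadjusted p under 0.05 stood 10 subunit genes, all higher in CD+DSS, beside 8.67% of all genes in that direction. For 21 genes every CD+DSS library was above every CD library, beside 13.7% of all genes. These 21 comprised 9 of complex I, 1 of complex II, 3 of complex III, 1 of complex IV and 7 of ATP synthase. Without CD+DSS replicate 2 the median difference was 0.18, with 64 of 80 genes above 0.

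The medians by complex lay close together under CD. They were 0.35 for complex I, 0.23 for complex II, 0.26 for complex III, 0.31 for complex IV and 0.32 for ATP synthase. Every tested gene of complex II, complex III and ATP synthase was above 0. The genes below 0 were Ndufb2, Ndufb5, Ndufs1 and Ndufv2 of complex I, Cox7a1, and Ndufa4l2. The largest differences were those of Ndufa12, Cox5b and Ndufs6. Cox5b, a structural subunit of complex IV (chromosome 1, 36691449 to 36693681), had 57.6, 40.3 and 111 FPKM in CD and 118, 155 and 105 in CD+DSS. The third CD library exceeded the third CD+DSS library, so the groups overlapped, and the log2 difference was 0.96 ± 0.37 (SE; limma adjusted p = 0.271). Ndufs6, an accessory subunit of complex I (chromosome 13, 73319838 to 73328542), had 32.1, 26.0 and 60.8 FPKM in CD and 70.1, 76.1 and 57.0 in CD+DSS. Its difference was 0.84 ± 0.35 (limma adjusted p = 0.298), again with CD replicate 3 within the range of the DSS group. Cyc1, cytochrome c1 (chromosome 15, 76343523 to 76346260), had 106, 90.7 and 133 FPKM in CD and 155, 177 and 144 in CD+DSS. These groups did not overlap, and the difference of 0.54 ± 0.23 had a limma adjusted p of 0.301. Atp5d, the delta subunit of the rotating stalk of ATP synthase (chromosome 10, 80138632 to 80145818), likewise did not overlap, with 110, 93.4 and 148 FPKM in CD and 163, 216 and 151 in CD+DSS (0.60 ± 0.25; limma adjusted p = 0.305).

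Of the 2 most abundant ATP synthase genes, Atp5a1 had 444, 453 and 436 FPKM in CD and 530, 571 and 482 in CD+DSS, a difference of 0.24 ± 0.18 (limma adjusted p = 0.517). Atp5b had 362, 340 and 385 in CD and 431, 467 and 406 in CD+DSS (0.26 ± 0.17; limma adjusted p = 0.470). For both genes each CD+DSS library was above each CD library. Sdhd had 178, 161 and 192 FPKM in CD and 198, 276 and 213 in CD+DSS, the 1 gene of complex II whose groups did not overlap (0.36 ± 0.20; limma adjusted p = 0.406). Sdha, the flavoprotein of complex II that also serves the TCA cycle, overlapped, at 109, 100 and 114 against 127, 144 and 111.

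**Figure D3:**
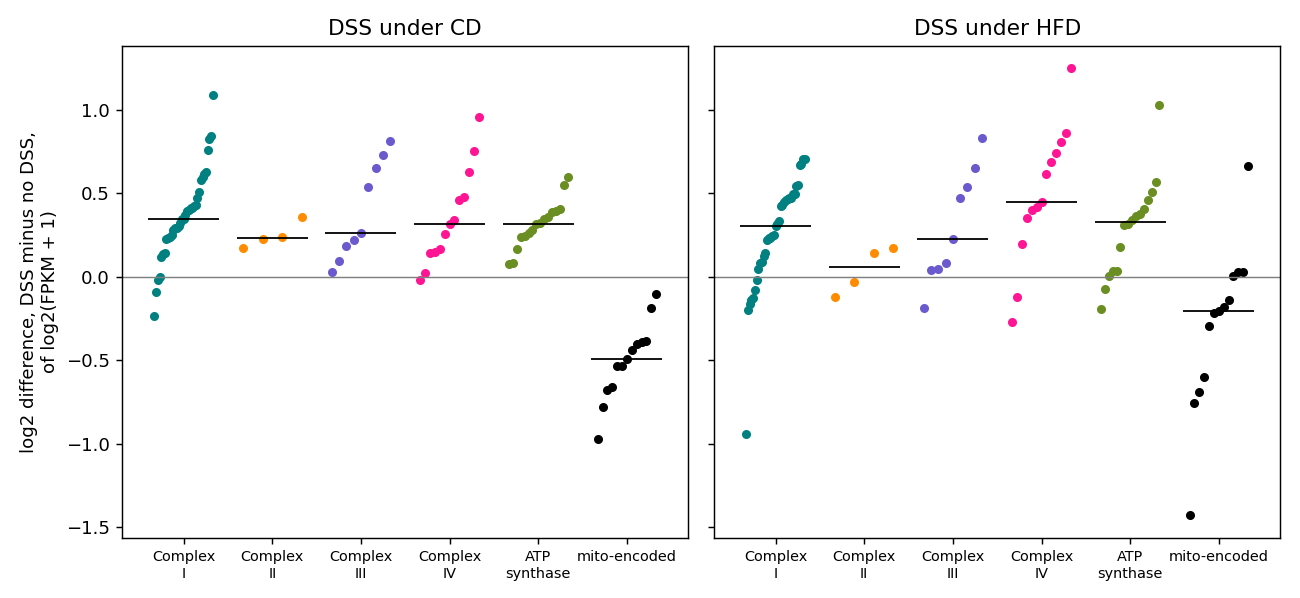
Log2 difference (DSS minus no DSS, on log2(FPKM + 1)) of each tested gene under CD and under HFD, by complex, with the 13 mitochondrially encoded subunits; each point is 1 gene and the line is the median. Medians of the 5 nuclear-encoded complexes are above 0 under both diets, and those of the mitochondrially encoded genes are -0.49 under CD and -0.20 under HFD.

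Under HFD the median difference with DSS was again 0.31, and 17 subunits lay below 0 in place of 6. Of 80 genes, 63 were higher in HFD+DSS, with a median of 0.31, where 50.9% of all genes were higher and the median was 0.01. None passed the limma test, beside 0.339% of all genes tested (48 of 14179), and voom called 0. At an unadjusted p under 0.05 were 8 genes higher, beside 7.34% of all genes in that direction, and 1 lower, Ndufa12, beside 6.23%. Groups did not overlap for 10 genes, all higher in HFD+DSS, beside 8.82% of all genes. In all, 61 genes were above 0 under both diets, beside 35.5% of all genes, 13 above 0 under CD only, 2 under HFD only and 4 under neither. Without HFD replicate 2 the median was 0.14, and without HFD+DSS replicate 3 it was 0.17.

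Complex IV had the highest median under HFD, 0.45, and complex II the lowest, 0.06. Complex I stood at 0.31, complex III at 0.23 and ATP synthase at 0.33. Cox6a1, Cox8a and Cox7c were among the 8 genes higher at an unadjusted p under 0.05. Cox6a1 (chromosome 5, 115345642 to 115348981) had 591, 328 and 498 FPKM in HFD and 615, 753 and 880 in HFD+DSS. Its groups did not overlap, and the difference was 0.69 ± 0.29 (limma adjusted p = 0.337). Under CD, Cox6a1 had 475, 450 and 712 FPKM against 850, 1047 and 634, which overlapped, with a difference of 0.63 ± 0.29 (limma adjusted p = 0.332). Cox8a (chromosome 19, 7215153 to 7217616) had 478, 223 and 356 FPKM in HFD and 427, 630 and 853 in HFD+DSS, with overlap (0.86 ± 0.36; limma adjusted p = 0.337). Cox7c, another small complex IV subunit (chromosome 13, 86044816 to 86046904), had 107, 83.7 and 155 FPKM in HFD and 215, 193 and 183 in HFD+DSS. It did not overlap under HFD (0.81 ± 0.25; limma adjusted p = 0.215) and did under CD (0.26 ± 0.25; limma adjusted p = 0.641).

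Atp5k, subunit e in the membrane part of ATP synthase (chromosome 5, 108433244 to 108434448), had the largest difference under HFD apart from Cox8b. Its levels were 30.5, 27.0 and 28.9 FPKM in HFD and 40.1, 84.4 and 62.9 in HFD+DSS, without overlap (1.03 ± 0.28; limma adjusted p = 0.159). Under CD they were 29.6, 31.9 and 48.0 against 55.9, 53.5 and 34.9, with overlap and a difference of 0.39 ± 0.28 (limma adjusted p = 0.508). Ndufa3, an accessory complex I subunit, had 34.3, 36.9 and 58.6 FPKM in HFD and 63.8, 72.9 and 71.3 in HFD+DSS (0.70 ± 0.23; limma adjusted p = 0.237). Ndufa1 had 122, 75.4 and 118 against 141, 177 and 179, also without overlap (0.67 ± 0.28; limma adjusted p = 0.333). In complex III, Uqcr10, a small accessory subunit, gave the smallest p, with 153, 117 and 210 FPKM in HFD and 211, 201 and 273 in HFD+DSS. These overlapped, and its difference was 0.54 ± 0.25 (limma adjusted p = 0.382). Sdha and Sdhb, the catalytic subunits of complex II, were at 115, 99.1 and 137 and at 84.7, 77.2 and 115 FPKM in HFD, against 115, 119 and 106 and 79.5, 85.9 and 85.3 in HFD+DSS, with differences of -0.03 ± 0.17 and -0.12 ± 0.19.

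**Figure D4:**
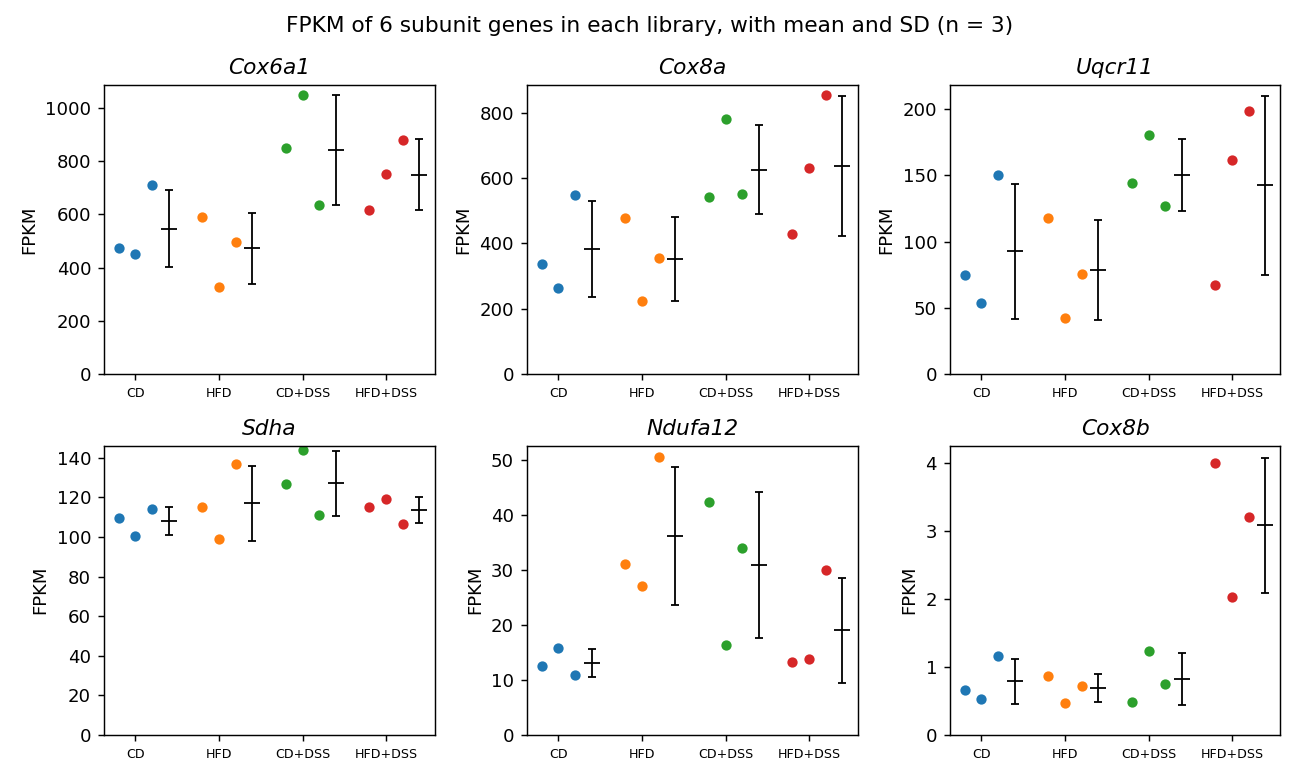
FPKM of 6 subunit genes in each library (points) with the group mean and SD (n = 3); each panel has its own axis starting at 0. Cox6a1, Cox8a and Uqcr11 have higher group means with DSS under both diets, Sdha varies little, Ndufa12 has its lowest group mean in CD, and Cox8b is above 2 FPKM in HFD+DSS libraries alone.

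Averaged over both diets, which uses all 12 libraries, 71 of 80 subunit genes were higher with DSS, with a median of 0.32 against 0.01 for all genes. None passed the limma test, beside 1.87% of all genes called higher and 2.74% in either direction, and voom called 0. At an unadjusted p under 0.05 stood 36 genes, all higher, beside 13% of all genes in that direction. They were 18 of 35 in complex I, 0 of 4 in complex II, 4 of 9 in complex III, 8 of 13 in complex IV and 6 of 16 in ATP synthase. The share was not particular to the respiratory chain. Of 77 mitochondrial ribosomal protein genes, 36 were higher at that threshold, as were 92 of 307 other protein-coding genes of at most 1000 bases. Cox8b, among the 8 of complex IV, passed the filter on low values only through HFD+DSS, where it is high. The largest differences were 0.85 ± 0.26 for Cox5b (limma adjusted p = 0.0970), 0.82 ± 0.34 for Uqcr11 (0.180), 0.81 ± 0.26 for Cox8a (0.104), 0.76 ± 0.25 for Ndufb3 (0.111) and 0.76 ± 0.25 for Ndufs6 (0.112). Uqcr11, a small complex III subunit, had 74.6, 53.4 and 150 FPKM in CD and 144, 181 and 127 in CD+DSS, then 118, 42.1 and 75.6 in HFD and 67.6, 161 and 198 in HFD+DSS. Its groups overlapped under both diets. Without CD replicate 3 the number of subunit genes called higher was 3, beside 2.29% of all genes. Without HFD+DSS replicate 1 or replicate 2 it was 1, beside 1.39% and 1.42% of all genes.

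The difference with DSS was larger for subunit genes with a short summed exon length, and the median of short genes outside the respiratory chain was also above 0. Of the subunit genes tested, 19 have at most 1000 bases of exon, and their median DSS difference averaged over diets was 0.54, with 19 of 19 above 0. The 307 other protein-coding genes of that length had a median of 0.23, with 68.4% above 0. Over 4000 bases, 10 subunit genes had a median of 0.12, and 6736 other genes a median of -0.06. In each of the 5 length classes the subunit median lay above that of the other genes. The gap was widest in the shortest class and narrowest from 1000 to 1500 bases, at 0.27 against 0.20. It was 0.27 against 0.14 from 1500 to 2500 bases and 0.22 against 0.08 from 2500 to 4000, so it did not shrink steadily with length. After a correction for length and GC content, fitted in each library on other protein-coding genes and chosen after the data had been seen, the median subunit difference was 0.16, with 63 of 80 above 0. It was 0.19 under CD (66 of 80) and 0.15 under HFD (52 of 80). The pooled SD between replicate libraries of the subunit median was 0.24 before this correction and 0.16 after it.

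**Figure D5:**
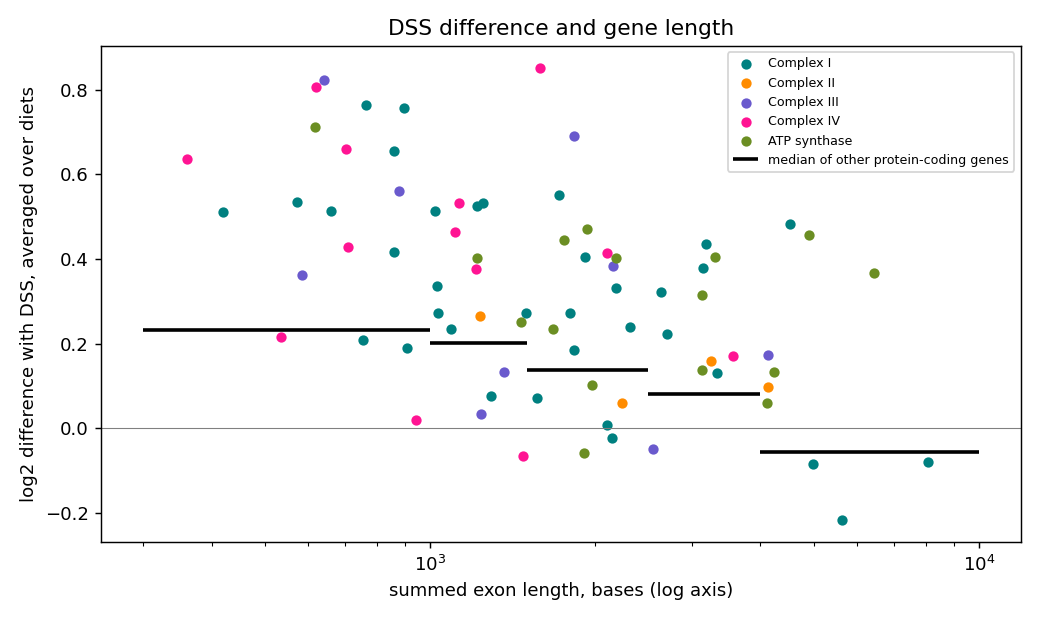
DSS difference averaged over diets (log2(FPKM + 1)) against summed exon length (log axis) for the tested subunit genes of the 5 complexes; black lines are the medians of other protein-coding genes in 5 length classes, the first up to 1000 bases and the last over 4000. The line falls from 0.23 to -0.06, and points at short lengths lie higher than those at long lengths.

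Diet was compared without DSS (HFD against CD) and with it (HFD+DSS against CD+DSS). Subunit medians were 0.03 without DSS (50 of 80 above 0, beside 45.9% of all genes) and -0.06 with DSS (29 of 80 above 0, beside 45.4%), both within the 0.24 SD between replicate libraries. None was called in either comparison, beside 0% of all genes. At an unadjusted p under 0.05 was 1 subunit gene in each, Ndufa12 without DSS and Cox8b with DSS, beside 4.15% and 6.62% of all genes, and voom gave 1 in each as well. These were also the only subunit genes higher without overlap, beside 4.61% and 3.6% of all genes. The signs of the medians rested on single libraries. Without HFD replicate 3 the first median was -0.12, and without CD+DSS replicate 2 the second was 0.09. Atp5o, the stalk subunit that holds the F1 head still, was the 1 gene lower without overlap, at 69.6, 84.7 and 68.2 FPKM in CD+DSS against 57.7, 63.4 and 63.9 in HFD+DSS (-0.26 ± 0.16; limma adjusted p = 0.805), beside 5.85% of all genes. The difference between the DSS effects of the diets (interaction, HFD minus CD) had a median of -0.11 over the subunits, beside -0.01 over all genes. None was called, beside 0% of all genes, with 2 subunit genes at an unadjusted p under 0.05 beside 5.42% of all genes.

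Ndufa12, an accessory subunit of the peripheral arm of complex I (ENSMUSG00000020022, chromosome 10, 94198720 to 94221443), was the 1 subunit gene at an unadjusted p under 0.05 in opposite directions with DSS under the 2 diets. Without DSS it had 12.5, 15.9 and 10.9 FPKM under CD and 31.0, 27.0 and 50.5 under HFD. With DSS it had 42.2, 16.2 and 34.0 FPKM under CD and 13.2, 13.8 and 30.0 under HFD. The CD libraries were below all HFD and all CD+DSS libraries, while the HFD+DSS values overlapped those of HFD and of CD+DSS. Each value rests on at least 286 fragments. The differences were 1.09 ± 0.39 with DSS under CD, -0.94 ± 0.39 with DSS under HFD, 1.36 ± 0.39 with HFD and -0.67 ± 0.39 with HFD under DSS (limma adjusted p = 0.241, 0.326, 0.798 and 0.783). The interaction was -2.03 ± 0.55, with an unadjusted p of 0.00321 and a limma adjusted p of 0.560. The exons of Ndufa12 overlap those of no other annotated gene, while 29 of the 84 subunit genes share exon bases with one, and whether the counting used strand was not given in the sources used here. With the posterior Hox level of each library as a covariate, the differences with DSS were 1.99 under CD and -1.73 under HFD. That level itself differed between the groups, with means of 3.96 in CD, 2.04 in HFD, 1.65 in CD+DSS and 4.04 in HFD+DSS. This fit therefore cannot separate position from diet and DSS, and the part of position was not tested.

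Cox8b, the isoform of subunit 8 known from heart, skeletal muscle and brown fat (ENSMUSG00000025488, chromosome 7, 140898945 to 140900446), was low, with its highest values in HFD+DSS. Without DSS it had 0.666, 0.530 and 1.17 FPKM under CD and 0.872, 0.472 and 0.725 under HFD. With DSS it had 0.489, 1.23 and 0.745 FPKM under CD and 4.01, 2.03 and 3.20 under HFD. These are 3 to 7 fragments in each of the first 9 libraries and 22, 13 and 22 in HFD+DSS, so the 3 HFD+DSS libraries stood above all others. Cox8b reached the minimum of 1 FPKM in 2 of the 9 libraries outside HFD+DSS, so it passed the filter on low values only through the group in which it is high, and its differences are given as a description. The difference with DSS under HFD was 1.25 ± 0.23 with a limma adjusted p of 0.0501, and under CD it was 0.02 ± 0.23. With a pseudocount of 0.1 in place of 1 the first was 1.99 (limma adjusted p = 0.0763). With no filter on low values its limma adjusted p was 0.129. With libraries left out in turn its limma adjusted p ran from 0.0336, without HFD+DSS replicate 2, to 0.250, without HFD replicate 2, and was 0.0495 without CD+DSS replicate 2. Cox8b is among the genes counted above as higher under HFD, averaged over diets and for diet with DSS. It is also 1 of the 2 counted for the interaction. The interaction was 1.23 ± 0.32, with an unadjusted p of 0.00292 and a limma adjusted p of 0.560. Of 6 brown adipocyte markers, Elovl3 and Zic1 were listed at 0 in all 12 libraries and Ucp1 in 11, among them the 3 of HFD+DSS. The summed level of the 6 was 2.67 to 6.90 FPKM in HFD+DSS against 2.29 to 8.73 elsewhere, and Ppara, which intestinal epithelium also expresses, made up most of it. Without Ppara the sum was 0.541 to 0.973 FPKM in HFD+DSS and 0.107 to 1.61 elsewhere. The summed level of 12 skeletal muscle markers was 6.46 to 14.4 FPKM in HFD+DSS and 4.74 to 44.1 elsewhere. Of the other muscle isoforms, Cox7a1 had 17.9, 20.9 and 22.1 FPKM in HFD+DSS and 15.0, 8.69 and 23.3 in HFD, and Cox6a2 had at most 6 fragments in an HFD+DSS library.

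Ndufa4 and Ndufa4l2, a gene known to be induced by hypoxia-inducible factor, had differences with DSS no larger than their SE. Ndufa4 had 82.8, 67.7 and 66.0 FPKM in CD and 76.6, 102 and 68.8 in CD+DSS, then 79.5, 75.8 and 115 in HFD and 82.2, 82.3 and 94.3 in HFD+DSS (0.18 ± 0.21 and -0.04 ± 0.21). Ndufa4l2 was between 0.238 and 1.95 FPKM, from 4 to 34 fragments, and its differences with DSS were -0.14 ± 0.32 under CD and -0.02 ± 0.32 under HFD.

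Other genes of the pathway were set beside the subunits. The mitochondrially encoded subunits were lower with DSS in 13 of 13 genes under CD (median -0.49) and in 9 of 13 under HFD (median -0.20), and none was called in any comparison. Mitochondrial ribosomal protein genes, 77 in number, had medians of 0.20 under CD and 0.27 under HFD, with none called. With DSS under CD, 24 of the 77 were higher and 1 lower without overlap, and under HFD 15 were higher. For 44 assembly factors the medians were 0.15 and 0.12, for 17 TCA cycle enzymes 0.01 and -0.05, and for 16 regulators of mitochondrial biogenesis -0.02 and -0.03, and none of these was called. Within the regulators, Ppargc1a, the coactivator PGC-1alpha, differed by -0.71 ± 0.19 with DSS averaged over diets (limma adjusted p = 0.0660), and Esrra, the nuclear receptor it acts with, by 0.70 ± 0.19 (limma adjusted p = 0.0716). In the list of glycolysis and hypoxia genes, 22 of 22 were above 0 averaged over diets, with a median of 0.49, and 5 of 22 were called higher, beside 1.87% of all genes. These were the lactate transporter gene Slc16a3 (1.24 ± 0.21; limma adjusted p = 0.0137), the carbonic anhydrase Car9 (0.78 ± 0.15; 0.0205), the phosphofructokinase Pfkp (0.56 ± 0.11; 0.0263), the oxygen-sensing hydroxylase Egln3 (0.88 ± 0.18; 0.0324) and the enolase Eno1 (0.59 ± 0.13; 0.0424). General epithelial markers had medians of 0.49 with DSS under CD and 0.18 under HFD. Colonocyte markers had medians of -0.07 (4 of 10 above 0) and 0.225 (6 of 10). The medians were -0.53 and 0.36 for smooth muscle markers, 0.31 and -1.08 for white adipocyte markers, and 0.07 and 0.01 for immune cell markers. The part of these cell types in the subunit differences was not tested.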

How the data were processed

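The authors deposited 1 table of FPKM per gene for the 12 libraries. Reads were placed on mm10, per the submitters' processing notes, and which aligner, counter and annotation were used is not given in the sources used here. A SMARTER mRNA-Seq kit was used to build the libraries, per the labels' protocols. Multiplying the deposited FPKM by exon length in GENCODE M21 and by a library size inferred for each library from the steps between low values (13498720 to 19087990 fragments) gave values within 0.1 of a whole fragment for 97.0% to 97.2% of values, and this annotation supplied symbols and coordinates.

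The deposited FPKM were analysed as log2(FPKM + 1) with limma 3.58.1 in R 4.3.3, with all 12 libraries in 1 fit, a mean for each group and a trend over expression. The 14179 genes that reached FPKM 1 in 3 or more libraries were tested, and p-values were adjusted by Benjamini-Hochberg over all of them. Differences on this scale understate the change of low genes. Errors are SE from limma. The fit was tested on simulated data. Alternatives were another pseudocount, other filters, rescaling to TPM, voom on recovered fragments, only the groups compared, the replicate number as a block, the posterior Hox level as a covariate, each library left out, and a length and GC correction added after the data were seen.

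The subunit genes and all lists were chosen with earlier results of these data known. Subunits were named as the 2 most abundant of each complex, the smallest p of each complex and the 3 largest differences in each of 4 comparisons, and tissue isoforms with their partners. A subunit that this rule names is not reported here. From other lists, called genes were named; Ppargc1a, Esrra, Uqcr11, Ndufb3 and the subunits below 0 were named after their values were seen. Fragment floors cover counting error only.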

Additional observations from a re-analysis of the deposited data

How the results depend on the processing

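The median subunit difference kept its sign under every alternative that used all libraries of the comparison. With libraries left out in turn it ranged from 0.179 to 0.444 for DSS under CD, from 0.144 to 0.422 under HFD, from 0.236 to 0.400 averaged over diets, from -0.116 to 0.177 for diet without DSS, from -0.172 to 0.0878 for diet with DSS and from -0.261 to 0.0616 for the interaction. Subunits called ranged from 0 to 1 for DSS under HFD and from 0 to 3 averaged over diets, and were 0 in the other comparisons. The 1 called under HFD was Cox8b, which passed the filter on low values only through HFD+DSS, where it is high. Over all genes, calls ranged from 0 to 33 for DSS under CD, from 1 to 78 under HFD, from 114 to 479 averaged, from 0 to 2 and 0 to 1 for diet without and with DSS, and from 0 to 3 for the interaction. Of single genes, Sdhb (-0.0312 to 0.252, below 0 without HFD replicate 3) and Cox6b2 (-0.5985 to 0.0906, above 0 without HFD replicate 2) changed sign for diet without DSS; the cause was not tested.

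Calls over all genes, 12 for DSS under CD, 48 under HFD and 389 averaged over diets, moved further. With no filter on low values they were 5, 10 and 173, with 2 for diet with DSS and 1 for the interaction. With only the groups of the comparison they were 0 and 12, with the posterior Hox covariate 0 and 1, and with the length and GC correction 2 and 15. Rescaling to TPM gave 210 averaged over diets. The replicate block gave 2, 12 and 162, and the block with the length and GC correction 0, 3 and 100, with 0 subunits called in either. The labels do not say that a number is shared by anything: deviations of same-numbered libraries correlated between -0.462 and 0.204 over 18 pairs, and 1 of 12 libraries correlated best with its own number. Depth limits Cox8b, Ndufa4l2, Cox6b2 and Cox6a2, which rest on fewer than 100 fragments in each library.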
